A study of Ovis aries with 40 samples.

Results

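Surfactant lipid synthesis in the developing sheep lung was described through 10 genes of lipid synthesis and storage. They are SREBF1, ACACA, FASN, SCD and ELOVL1 of the fatty acid branch, CHKA, PCYT1A and CHPT1 of the phosphatidylcholine branch, and PLIN2 and HSD17B13 of the lipid droplet. The 10 members were taken by gene symbol from a table of 24478 genes, and all 10 were found. Their levels are given as CPM (counts scaled to a common library size, after TMM), in 40 libraries from proximal and distal lung of wild-type (WT) and CFTR-/- (CF) sheep. Animals were sampled at gestational days 65, 80, 100 and 120 and at term (day 147). Each of the 20 conditions had 2 libraries.

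Pulmonary surfactant is a film of phospholipid and protein that lowers surface tension in the alveolus, and saturated phosphatidylcholine is its main lipid. Alveolar type 2 cells make it late in gestation. Fatty acids built from acetyl-CoA are elongated or desaturated, joined to a glycerol backbone and combined with choline that has been activated as CDP-choline, and part of the lipid may be held in droplets before use.

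The animals were American Romney sheep, and the pieces sampled were bulk lung tissue, so that fewer cells of a type and less RNA per cell cannot be told apart in any value below. CF animals were made by nuclear transfer from gene-edited fetal fibroblasts of 1 male line, whereas WT animals were bred, and WT term lambs were born naturally. The genotype can therefore not be told apart from cloning, from that cell line or, before term, from depth. The step from day 120 to term in WT lung can likewise not be told apart from depth, whose ranges did not overlap, or from birth. A difference between genotypes in the change to term shares this limit. Proximal and distal libraries of the same genotype, age and replicate number were taken to come from the same animal. Both WT day 100 libraries of a region carried the same animal label. Their counts differed by more than sampling noise, which separate libraries of 1 animal would also do, and the chi-square per gene, which also grows with depth, was 7.30 in distal lung, the lowest of the 20 replicate pairs, and 44.2 in proximal lung, within the 28.0 to 202 of the other WT proximal pairs. Another animal label was shared by WT day 65 replicate 2 and CF day 100 replicate 2, so that groups here follow the sample titles.

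Depth was 24670355 to 43700012 reads in WT libraries before term, 85773994 to 103139483 in CF libraries before term, and 115937437 to 126749480 (WT) and 117316905 to 119451372 (CF) at term. CFTR, the edited gene, was at 11.0 to 43.8 CPM in WT and 4.99 to 34.9 CPM in CF libraries before term, and at 9.58 to 14.8 CPM in WT and 3.65 to 5.14 CPM in CF libraries at term. The prenatal levels of CFTR overlapped, and its log2 difference, CF against WT over days 65 to 120, was -0.71 ± 0.17 (SE) in proximal lung (adjusted p = 0.0108, edgeR) and -0.53 ± 0.13 in distal lung (adjusted p = 0.00664, under the size limit for a call). Counts over the whole gene do not show whether the edited exon is intact. The summed level of 10 alveolar type 2 markers was 784 to 1380 CPM at day 65. At day 120 it was 3810 to 7190 CPM in WT and 7770 to 21700 CPM in CF libraries, with no overlap, and at term 18700 to 29200 CPM in WT and 9180 to 36100 CPM in CF libraries. The libraries also differed in how long and short genes were represented. A length contrast was computed for each library as the median log2 deviation from the mean library of the longest genes (5300.5 bases or more, the upper quartile) minus that of the shortest (1806 bases or less, the lower quartile), and it ran from -0.24 to 0.23 in WT and from -1.02 to 0.91 in CF libraries before term, and from -0.89 to -0.23 (WT) and -0.78 to -0.37 (CF) at term.

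Per kilobase of exon, the members covered a wide range. CHPT1 and ELOVL1 had the highest medians over the 40 libraries, 29.6 and 26.1 CPM per kilobase, followed by FASN at 16.7, PLIN2 at 14.6, SCD at 12.7, PCYT1A and CHKA at 11.9, SREBF1 at 9.23, ACACA at 5.92 and HSD17B13 at 0.460 CPM per kilobase. The ranges of neighbours in this order overlapped, and no neighbours were set apart by them. HSD17B13 had the lowest median and, at 127 CPM per kilobase, the highest value of any member in any library. The plot of members by age gives every library.

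**Figure D1:**
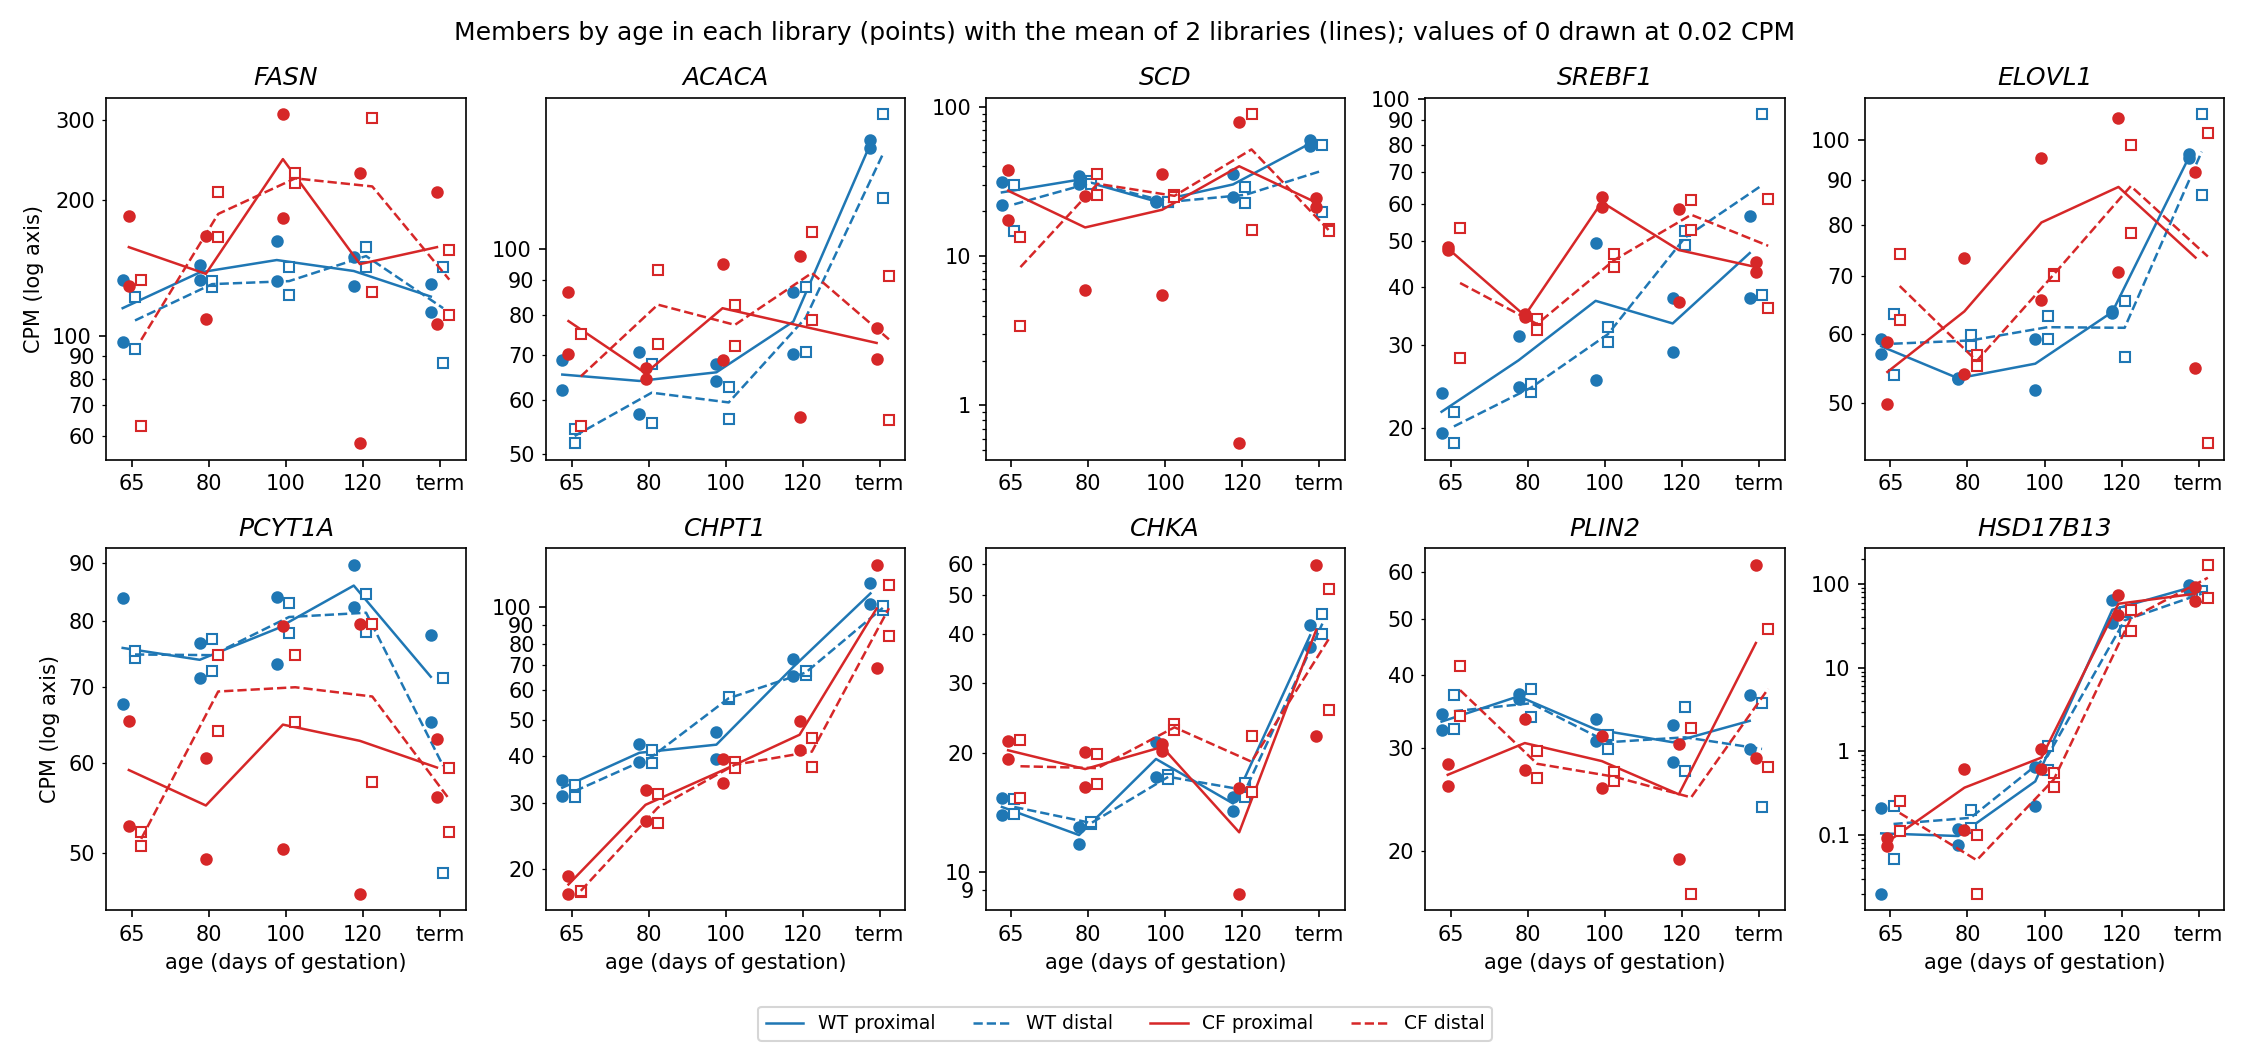
Level of each of the 10 members (CPM, log axis) against age (days of gestation, or term) in WT (blue) and CF (red) lung, with proximal libraries as filled circles and solid lines and distal libraries as open squares and dashed lines; points are libraries and lines join means of 2. HSD17B13 lies at or below 1.17 CPM to day 100 and at or above 27.4 CPM from day 120, while PLIN2 stays between 16.9 and 61.8 CPM.

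A change was called where edgeR's quasi-likelihood test gave an adjusted p (Benjamini-Hochberg over all genes tested) of 0.05 or less and the log2 fold change was 0.58 or more in size. All 10 members passed the filter on low counts in every time course, HSD17B13 through its later ages, since it held 0 to 67 reads a library at days 65 and 80. Its difference between those ages in WT proximal lung, -0.10 ± 1.30, could resolve little. Between days 65 and 80 no member was called in any of the 4 courses, against 0.0110% of genes in WT proximal, 0.0164% in WT distal and 0% in both CF courses. The unadjusted p was under 0.05 for 5 of the member tests in that interval, and DESeq2 called 0. Between days 80 and 100 again no member was called, against 1.87% of genes in WT proximal, 0.996% in WT distal and 0% in both CF courses. There the unadjusted p was under 0.05 for 7 member tests and DESeq2 called 3, which were HSD17B13 in both distal courses and CHKA in WT proximal lung.

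From day 100 to day 120 the members called were HSD17B13 and CHPT1 in WT proximal lung, where 2.57% of genes were called, HSD17B13 in WT distal lung, where 2.44% were, and HSD17B13 in CF distal lung, where 0.928% were. No member was called in CF proximal lung, where 0.0203% of genes were, although 1 had an unadjusted p under 0.05 and DESeq2 called 1, in both cases HSD17B13. From day 120 to term, 5 members were called higher in WT proximal lung (background 20.1% of genes, 11.3% higher and 8.78% lower), 3 in WT distal lung (22.3%, with 11.8% higher and 10.5% lower) and 1 in CF distal lung (22.9%, with 11.5% higher and 11.4% lower). None was called in CF proximal lung, where 0.356% of genes were called (0.0762% higher and 0.279% lower), 2 members had an unadjusted p under 0.05 and DESeq2 called 1. No member was called lower in any of these comparisons.

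Over the whole span from day 65 to day 120, the members called were all higher at day 120. They were 2 in WT proximal lung (background 16.7%, with 9.17% higher and 7.54% lower), 3 in WT distal lung (15.9%, with 8.97% higher and 6.92% lower), 1 in CF proximal lung (1.66%, with 1.05% higher and 0.615% lower) and 2 in CF distal lung (12.1%, with 7.10% higher and 5.01% lower). HSD17B13 was among them in each course. The share of members called, 2 or 3 of 10 in the WT courses, was not far from the share of all genes called in either direction.

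**Figure D2:**
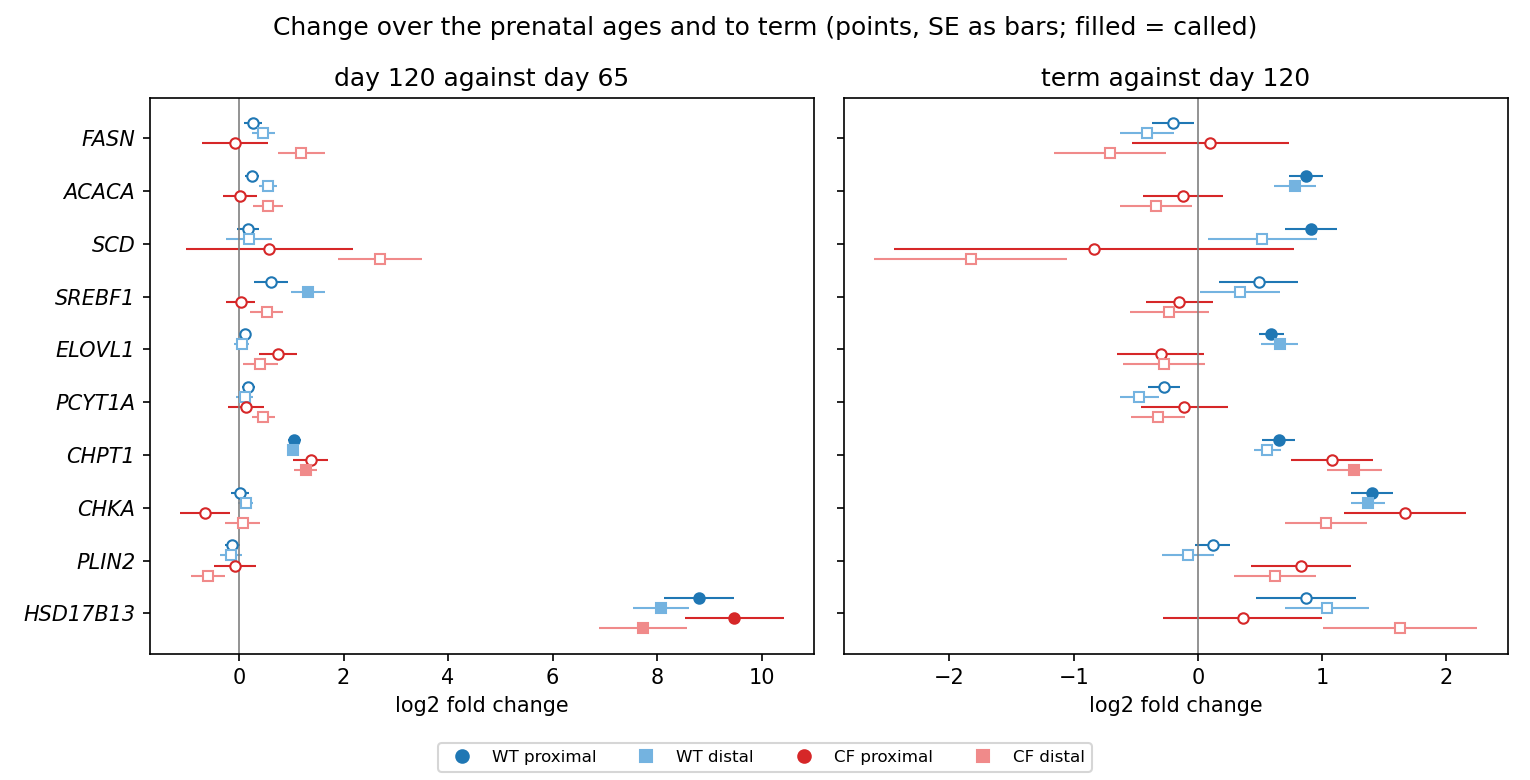
Log2 fold change of each member from day 65 to day 120 (left) and from day 120 to term (right) in the 4 courses, with standard errors as bars and called changes as filled symbols. HSD17B13 stands at 7.73 to 9.48 in the left panel; CHKA and ACACA are filled for both WT courses and open for both CF courses in the right panel.

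HSD17B13 encodes a lipid droplet protein of the hydroxysteroid dehydrogenase family that is best known from liver. The gene lies on chromosome 6 of Oar_v4.0 at 101692693 to 101709646 on the minus strand, with 7 exons listed. In WT proximal lung its libraries held 0.210 and 0 CPM at day 65, 0.0756 and 0.120 CPM at day 80, and 0.652 and 0.225 CPM at day 100. They then held 64.7 and 33.8 CPM at day 120 and 84.3 and 96.2 CPM at term. In WT distal lung the libraries held 1.17 and 0.595 CPM at day 100, 46.5 and 27.4 CPM at day 120 and 83.1 and 70.2 CPM at term. The libraries from day 120 on lay far above the earlier ones in both regions, with no overlap.

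HSD17B13 was at 0.611 and 1.08 CPM in CF proximal lung at day 100 and at 42.4 and 74.1 CPM at day 120. In CF distal lung it was at 0.374 and 0.548 CPM at day 100, at 27.7 and 49.6 CPM at day 120 and at 170 and 68.2 CPM at term. The 2 CF distal term libraries thus stood further apart than those of WT.

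The log2 fold change of HSD17B13 from day 100 to day 120 was 6.76 ± 0.57 (SE) in WT proximal (adjusted p = 9.79e-04) and 5.42 ± 0.44 in WT distal lung (adjusted p = 0.00132). It was 6.13 ± 0.80 in CF proximal (adjusted p = 0.0951, not called) and 6.40 ± 0.78 in CF distal lung (adjusted p = 0.0118). The CF proximal change was called with DESeq2 (adjusted p = 3.55e-15), the bias-adjusted quasi-likelihood (0.0372) and all 40 libraries in 1 fit (1.15e-04). From day 65 to day 120 the log2 fold change was 8.81 ± 0.67 in WT proximal, 8.07 ± 0.54 in WT distal, 9.48 ± 0.94 in CF proximal (adjusted p = 0.00650) and 7.73 ± 0.85 in CF distal lung. Between day 120 and term it was 0.87 ± 0.40 in WT proximal (adjusted p = 0.147), 1.04 ± 0.34 in WT distal (adjusted p = 0.0543), 0.36 ± 0.64 in CF proximal (adjusted p = 0.857) and 1.63 ± 0.62 in CF distal lung (adjusted p = 0.0829), none of them called. The WT distal change was called in 5 of the 10 other analyses (adjusted p of 0.0105 with DESeq2, 0.0130 with the bias-adjusted quasi-likelihood, 0.0360 without the 5 prenatal libraries of lowest length contrast, 0.0417 with the replicate block and just within the limit with no filter), the CF distal change with DESeq2 (0.0205) and the bias-adjusted quasi-likelihood (0.0310), and the WT proximal change with the latter (0.0342). Since the day 65 libraries held 0 to 26 reads of the gene, the exact size of this fold depends on the few reads there. Without CF distal day 100 replicate 1 or 2 the CF distal call from day 100 was lost (adjusted p = 0.173 and 0.192), and without CF proximal day 65 replicate 1 or 2 that of CF proximal lung from day 65 was lost (adjusted p = 0.109 and 0.137).

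CF and WT were not called different for HSD17B13 at any age. Over days 65 to 120 the difference was 0.66 ± 0.46 in proximal and -0.53 ± 0.44 in distal lung on the log2 scale, and its rise from day 100 to day 120 differed between genotypes by -0.66 ± 1.01 in proximal and 0.99 ± 0.85 in distal lung, so that differences of about 1 log2 unit could not be resolved. Of 7 hepatocyte markers, ALB was at or below 7.45 CPM before term, TTR at or below 0.397 CPM and HNF4A at or below 0.789 CPM, while TF, transferrin, stood at 34.3 to 112 CPM and no other marker passed 12.2 CPM. Their sum was 75.4 to 87.0 CPM at day 100 and 72.2 to 81.7 CPM at day 120 in WT, and 55.4 to 67.2 CPM and 82.8 to 119 CPM in CF libraries, so that it was higher at day 120 in CF lung alone. Across the 40 libraries the level of HSD17B13 ran with the summed alveolar type 2 markers (Pearson's r = 0.88 on the log2 scale), a description over libraries that share animals and ages.

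CHPT1, cholinephosphotransferase, joins CDP-choline to diacylglycerol in the last step of phosphatidylcholine synthesis. Its locus is chromosome 3, 170346924 to 170375004, on the plus strand. In WT proximal lung it was at 31.4 and 34.6 CPM at day 65, 65.7 and 73.0 CPM at day 120 and 102 and 116 CPM at term. In WT distal lung it was at 31.1 and 33.5 CPM at day 65, 66.1 and 67.8 CPM at day 120 and 98.4 and 101 CPM at term. The libraries of these ages did not overlap in either region.

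In CF lung CHPT1 began lower, with 19.2 and 17.2 CPM in proximal and 17.4 and 17.5 CPM in distal lung at day 65. It was at 49.7 and 41.7 CPM in proximal and 44.9 and 37.5 CPM in distal lung at day 120. At term the CF libraries held 69.0 and 130 CPM in proximal and 84.0 and 115 CPM in distal lung, a range that took in the WT libraries.

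From day 65 to day 120 CHPT1 rose by 1.06 ± 0.13 in WT proximal (adjusted p = 6.92e-04), by 1.04 ± 0.11 in WT distal (adjusted p = 5.45e-04) and by 1.28 ± 0.22 in CF distal lung (adjusted p = 0.00764) on the log2 scale. In CF proximal lung the change was 1.37 ± 0.34 (adjusted p = 0.0931). It was called there with DESeq2 (1.37, adjusted p = 0.0122) and with all 40 libraries in 1 fit (1.33, adjusted p = 1.08e-04). From day 120 to term CHPT1 rose by 0.65 ± 0.13 in WT proximal and by 1.26 ± 0.22 in CF distal lung, with 0.56 ± 0.11 in WT distal (adjusted p = 0.00678, under the size limit) and 1.08 ± 0.33 in CF proximal lung (adjusted p = 0.204). The CF proximal change to term was called with all 40 libraries in 1 fit (1.12, adjusted p = 7.9e-04). The WT proximal rise to term was called in 9 of the 10 other analyses, with folds of 0.48 to 0.66. The step from day 100 to day 120 in WT proximal lung was 0.71 ± 0.13 (adjusted p = 0.0261), and it was lost without any of the 4 libraries compared (adjusted p = 0.0779 to 0.203) or with the 2 WT day 100 libraries, which share an animal label, summed (adjusted p = 0.151). The CF distal rise from day 65 was lost without CF distal day 65 replicate 2 (adjusted p = 0.0565), the WT proximal rise to term without WT proximal day 120 replicate 1 (adjusted p = 0.0541) or term replicate 2 (adjusted p = 0.0514), and the CF distal rise to term once the length trend was removed (0.81, adjusted p = 0.0846).

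CHPT1 was also the member with the most calls between genotypes. Over days 65 to 120 it was lower in CF than in WT distal lung by -0.66 ± 0.08 on the log2 scale (adjusted p = 3.98e-05), with medians of 34.6 CPM in CF and 49.1 CPM in WT. By age, the distal difference was -0.88 ± 0.16 at day 65 (adjusted p = 0.00683), -0.45 ± 0.16 at day 80 (adjusted p = 0.116), -0.61 ± 0.16 at day 100 (adjusted p = 0.0452), -0.69 ± 0.16 at day 120 (adjusted p = 0.0281) and 0.02 ± 0.16 at term (adjusted p = 0.953). In proximal lung the prenatal difference was -0.54 ± 0.12 (adjusted p = 0.00851, under the size limit), with no single age called. The CF libraries were below the WT libraries at each prenatal age in distal lung. In the same prenatal distal comparison 5 of 6 ciliated markers were called lower and 4 of 10 alveolar type 2 markers higher in CF. The shares of all genes were 6.48% lower and 11.5% higher. The part of these markers in the difference of CHPT1 was not tested.

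After a trend on gene length was removed from each library, the prenatal distal difference was -0.52 (adjusted p = 0.00319, under the size limit) and that of proximal lung -0.49 (adjusted p = 0.0544). The calls at days 100 and 120 also ended there, and that of day 65 ended without the 5 prenatal libraries of lowest length contrast (-1.02 to -0.24), at a fold of -0.83 (adjusted p = 0.143), where 1 CF library is set against 1 of WT. The day 100 call ended there too (-0.61, adjusted p = 0.0613). The day 100 call was lost on leaving out any of 12 libraries of other or the same ages (adjusted p up to 0.248), with folds of -0.63 to -0.58 that hardly moved, and also with the 2 WT day 100 libraries summed (adjusted p = 0.223). The day 120 call was lost without CF distal day 120 replicate 2 (adjusted p = 0.0610) or either WT distal day 120 library (adjusted p = 0.127 and 0.123). The change from day 120 to term was larger in CF than in WT distal lung by 0.71 ± 0.23 (adjusted p = 0.0659, not called). The antisense gene SYCP3, which shares 54 exon bases with CHPT1, was at 6.50 to 25.6 CPM, and its prenatal difference was -0.10 ± 0.10 in distal lung (adjusted p = 0.496), where that of CHPT1 was -0.66. At day 120 alone SYCP3 was at -0.61 ± 0.20 in distal lung (adjusted p = 0.108), near the -0.69 of CHPT1, and it rose from day 65 to day 120 by 1.35 ± 0.22 in WT proximal and 1.49 ± 0.22 in WT distal lung, as CHPT1 did. Since the strand setting of the counting is not stated, reads in the shared bases cannot be assigned to either gene.

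CHKA, choline kinase alpha, phosphorylates choline and opens the same pathway. The gene is on chromosome 21 at 44752610 to 44800193 (minus strand). In WT lung all 16 libraries before term held 11.8 to 21.3 CPM. At term the WT libraries held 37.0 and 42.1 CPM in proximal and 44.9 and 39.9 CPM in distal lung, above every earlier WT library. The CF term libraries held 22.1 and 59.7 CPM in proximal and 25.6 and 51.9 CPM in distal lung, each with a lower replicate 1.

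From day 120 to term CHKA rose by 1.40 ± 0.17 in WT proximal (adjusted p = 7.33e-04) and by 1.37 ± 0.14 in WT distal lung (adjusted p = 6.52e-04) on the log2 scale. These calls held in each of the 10 other analyses at the same limits, with folds of 1.16 to 1.41. In CF lung the change was 1.67 ± 0.49 in proximal (adjusted p = 0.189) and 1.03 ± 0.33 in distal lung (adjusted p = 0.0527), neither called. The distal change was called in 4 of the other analyses, with DESeq2 (adjusted p = 0.0152), RLE scaling (0.0482), all 40 libraries in 1 fit (0.0296) and the bias-adjusted quasi-likelihood (0.0474), and the proximal change with DESeq2 (0.0327) and all 40 libraries (0.00176). The difference in change between genotypes was 0.30 ± 0.53 (proximal) and -0.35 ± 0.38 (distal), with neither called. Without CF distal term replicate 1 the CF distal rise, with replicate 2 alone at term, was 1.44.

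PCYT1A makes CDP-choline and is generally taken as the rate-limiting step of this pathway. Its position is 188915655 to 188963801 on chromosome 1, minus strand. Its level kept to a narrow range, 67.6 to 89.6 CPM in WT proximal and 72.2 to 84.4 CPM in WT distal libraries before term and 46.0 to 79.4 CPM in CF libraries before term. No change with age was called in any course with all libraries. The largest fitted age change in WT was -0.47 ± 0.16 from day 120 to term in distal lung (adjusted p = 0.0664), and it became a called fall of -0.76 (adjusted p = 0.00170) without WT distal term replicate 1. The arm was then replicate 2 alone, at a length contrast of -0.89 where every other WT library was at -0.24 or above, and 30.8% of all genes were called. In CF distal lung the change from day 65 to day 120 was 0.66 without CF distal day 120 replicate 2. The day 120 arm was then replicate 1 alone, at a length contrast of 0.91, the highest of any library.

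The prenatal difference of PCYT1A, CF against WT, was -0.27 ± 0.09 in distal (adjusted p = 0.0383) and -0.38 ± 0.13 in proximal lung (adjusted p = 0.0581), both under the size limit. With the length trend removed it was -0.39 (adjusted p = 2.5e-04) and -0.43 (adjusted p = 0.00200), again under that limit. At single ages it was called in distal lung at day 65 with DESeq2 (-0.58 ± 0.21, adjusted p = 0.0481). In proximal lung at day 120 the difference of PCYT1A was -0.90 without CF proximal day 120 replicate 1, when the CF arm was the 1 library at a length contrast of -1.02. Its level ran with the length contrast of the libraries, with r = 0.87 over 20 WT and 0.85 over 20 CF libraries.

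SREBF1 encodes the sterol regulatory element binding protein that drives transcription of fatty acid synthesis genes. It lies on chromosome 11 at 34133695 to 34149654, plus strand. In WT distal lung it was at 21.7 and 18.6 CPM at day 65, 23.9 and 24.9 CPM at day 80, 32.8 and 30.5 CPM at day 100 and 49.1 and 52.5 CPM at day 120. Each of these ages lay above the one before it. At term the WT distal libraries held 92.7 and 38.4 CPM, the latter in the library at a length contrast of -0.89, and so spread across the day 120 values.

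In WT distal lung SREBF1 rose by 1.32 ± 0.32 on the log2 scale from day 65 to day 120 (adjusted p = 0.0236). The rise was called in 9 of the 10 other analyses, with folds of 1.21 to 1.34. That call was lost without any of the 4 libraries compared, at folds of 1.21 to 1.43. In WT proximal lung the same change was 0.61 ± 0.32 (adjusted p = 0.222), in CF distal 0.53 ± 0.32 (adjusted p = 0.287) and in CF proximal lung 0.03 ± 0.27 (adjusted p = 0.972).

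Before term SREBF1 was higher in CF than in WT proximal lung by 0.67 ± 0.15 (adjusted p = 0.00848), with libraries at 34.4 to 61.9 CPM (median 48.2) in CF and 19.6 to 49.4 CPM (median 27.1) in WT. In distal lung the difference was 0.54 ± 0.17 (adjusted p = 0.0263, under the size limit; called at 0.62, adjusted p = 0.0114, without CF distal day 65 replicate 2 and at 0.60, adjusted p = 0.0267, without the 5 prenatal libraries of lowest length contrast), with 28.2 to 61.0 CPM (median 45.5) against 18.6 to 52.5 CPM (median 27.7). At term it was -0.10 ± 0.31 in proximal and -0.39 ± 0.34 in distal lung. Of the 10 alveolar type 2 markers 2 were called higher in CF proximal lung before term and none lower, against 10.9% of all genes higher and 3.21% lower. The part of these markers in the difference of SREBF1 was not tested. The proximal call held with the length trend removed (0.60, adjusted p = 0.00579), and it was lost, by falling just under the size limit, without CF proximal day 120 replicate 1 (0.58 as rounded, adjusted p = 0.00742) or WT proximal day 100 replicate 1 (0.57, adjusted p = 0.0193). Its correlation with the length contrast was 0.06 over the 40 libraries.

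ACACA, acetyl-CoA carboxylase alpha, makes malonyl-CoA and is the committing step of fatty acid synthesis. Its locus is chromosome 11, 12987306 to 13232020, on the minus strand. WT libraries before term held 51.8 to 88.1 CPM, and those at term held 141 and 145 CPM in proximal and 158 and 119 CPM in distal lung. CF libraries held 55.0 to 106 CPM before term and, at term, 76.7 and 69.0 CPM in proximal and 91.4 and 56.0 CPM in distal lung. The WT term libraries thus lay above every other library, and the CF term libraries lay within the range of the CF prenatal ones.

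From day 120 to term ACACA rose by 0.87 ± 0.14 in WT proximal (adjusted p = 0.00321) and by 0.78 ± 0.17 in WT distal lung (adjusted p = 0.0124) on the log2 scale, with -0.12 ± 0.32 and -0.34 ± 0.29 in CF proximal and distal lung. The WT distal rise was 0.63 (adjusted p = 0.0902) without WT distal day 120 replicate 2. At term ACACA was lower in CF than in WT, by -0.98 ± 0.25 in proximal (adjusted p = 0.0317) and -0.88 ± 0.25 in distal lung (adjusted p = 0.0298). This comparison and the WT rise share the WT term libraries.

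The difference in change from day 120 to term, CF minus WT, was -0.96 ± 0.35 in proximal (adjusted p = 0.194) and -1.11 ± 0.35 in distal lung (adjusted p = 0.0623), and neither was called. With 1 library left in a condition, the distal difference was -1.32 without CF distal day 120 replicate 2. It was -1.55 without CF distal term replicate 1 and -1.31 without WT distal term replicate 2. The proximal difference was -1.31 without CF proximal day 120 replicate 2. With the length trend removed both were called, at -1.03 (adjusted p = 0.0195) and -0.98 (adjusted p = 0.0397), and the term differences were -0.91 in both regions (adjusted p = 0.00287 in proximal and 0.00809 in distal lung). The proximal term call was lost without any of the 4 libraries compared (adjusted p = 0.0624 to 0.179), and the distal call without CF distal term replicate 2 (-0.60, adjusted p = 0.212) or WT distal term replicate 1 (-0.69, adjusted p = 0.164).

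FASN, the multifunctional synthase that makes palmitate, was not called in any comparison. The gene is on chromosome 11 at 49888074 to 49905801 (plus strand). WT libraries ran from 93.3 to 162 CPM before term (medians 133 in proximal and 130 in distal lung) and from 87.0 to 142 CPM at term. CF libraries ran from 57.7 to 309 CPM before term (medians 174 and 186) and from 106 to 208 CPM at term. Before term the CF range was wider at both ends, and replicates of a CF condition differed by a median of 0.69 log2 units against 0.21 in WT.

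Over days 65 to 120 FASN differed, CF against WT, by 0.31 ± 0.25 in proximal (adjusted p = 0.419) and 0.42 ± 0.19 in distal lung (adjusted p = 0.104). Its age changes in WT lay between -0.41 ± 0.22 and 0.46 ± 0.22, and the former, from day 120 to term in distal lung, became a called fall of -0.78 (adjusted p = 0.00828) without WT distal term replicate 1, when the arm was the 1 library at a length contrast of -0.89. Its level ran with the length contrast (r = 0.79 over 40 libraries). Without the 5 prenatal libraries of lowest length contrast, a choice made after the data were seen, the proximal difference was 0.63 (adjusted p = 0.0124). Without CF proximal day 120 replicate 1 the proximal difference at day 120 was called the other way, at -1.27 (adjusted p = 0.0367) where it was 0.05 ± 0.49 with all libraries. The CF arm was then the 1 library at a length contrast of -1.02, and 30.0% of all genes were called, against 1.35% with all libraries. Without CF distal day 120 replicate 2 the day 120 arm was replicate 1 alone, at a length contrast of 0.91, the highest of any library. The CF distal changes were then 1.68 from day 65 to day 120 and -1.22 from day 120 to term.

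SCD, the desaturase that makes oleate and palmitoleate, was the least reproducible member in CF lung. Its position is 20388194 to 20400199 on chromosome 22, plus strand. In CF proximal lung its replicates held 17.4 and 37.6 CPM at day 65, 5.95 and 25.2 at day 80, 35.5 and 5.54 at day 100, 79.6 and 0.558 at day 120 and 21.3 and 24.6 CPM at term. In CF distal lung they held 13.5 and 3.41 CPM at day 65 and 89.2 and 14.9 CPM at day 120. The CF replicates were apart by a median of 1.54 log2 units, against 0.27 in WT and 0.40 for all genes in CF. No age change of SCD in CF distal lung was called by edgeR, with 3 at an unadjusted p under 0.05, from day 65 to day 80 (1.91 ± 0.78, adjusted p = 0.282), from day 65 to day 120 (adjusted p = 0.0591) and from day 120 to term (-1.83 ± 0.78, adjusted p = 0.112). The change from day 65 to day 120 was called with DESeq2 (2.68 ± 0.71, adjusted p = 0.00160), with the replicate block (2.61 ± 0.64, 0.0302) and with no filter on low counts (2.66 ± 0.74, 0.0404), and that to term with DESeq2 (-1.78 ± 0.71, 0.0384). Without CF distal day 120 replicate 2 these 2 changes were 3.44 and -2.60, with the day 120 arm then replicate 1 alone, at a length contrast of 0.91.

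In WT proximal lung SCD libraries held 35.8 and 24.9 CPM at day 120 and 54.4 and 59.7 CPM at term, a rise of 0.91 ± 0.21 (adjusted p = 0.0139). It was called in 9 of the 10 other analyses, with folds of 0.78 to 0.92. That call was lost without WT proximal day 120 replicate 2 (adjusted p = 0.0987) or term replicate 2 (adjusted p = 0.0699). In WT distal lung the term libraries stood at 55.3 and 19.7 CPM and the change was 0.52 ± 0.44 (adjusted p = 0.420). CF against WT at term was -1.32 ± 1.25 in proximal (adjusted p = 0.619) and -1.29 ± 0.68 in distal lung (adjusted p = 0.220), although all 4 CF term libraries (14.8 to 24.6 CPM) were below 3 of the 4 WT ones.

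The level of SCD ran with the length contrast in CF (r = 0.78 over 20 libraries), with r = 0.07 over the WT libraries, term and prenatal together. WT distal term replicate 2, at a length contrast of -0.89, held 19.7 CPM, and replicate 1, at -0.24, held 55.3 CPM. The 2 lowest CF values, 0.558 CPM at day 120 and 3.41 CPM at day 65, came from the 2 prenatal libraries of lowest length contrast, CF proximal day 120 replicate 2 (-1.02) and CF distal day 65 replicate 2 (-0.52). Without the 5 prenatal libraries of lowest length contrast, the proximal difference at term was -1.32 ± 0.31 (adjusted p = 0.0142). Leaving out CF proximal day 120 replicate 1 moved the prenatal proximal difference from -0.20 ± 0.62 to -1.74, that at day 120 from 0.40 ± 1.23 to -5.76 and the CF proximal change from day 65 to day 120 from 0.58 (adjusted p = 0.905) to -5.58, the last 2 with a change of sign. The CF day 120 arm was then replicate 2 alone, at a length contrast of -1.02. The part of the length contrast in the SCD levels was not tested.

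**Figure D3:**
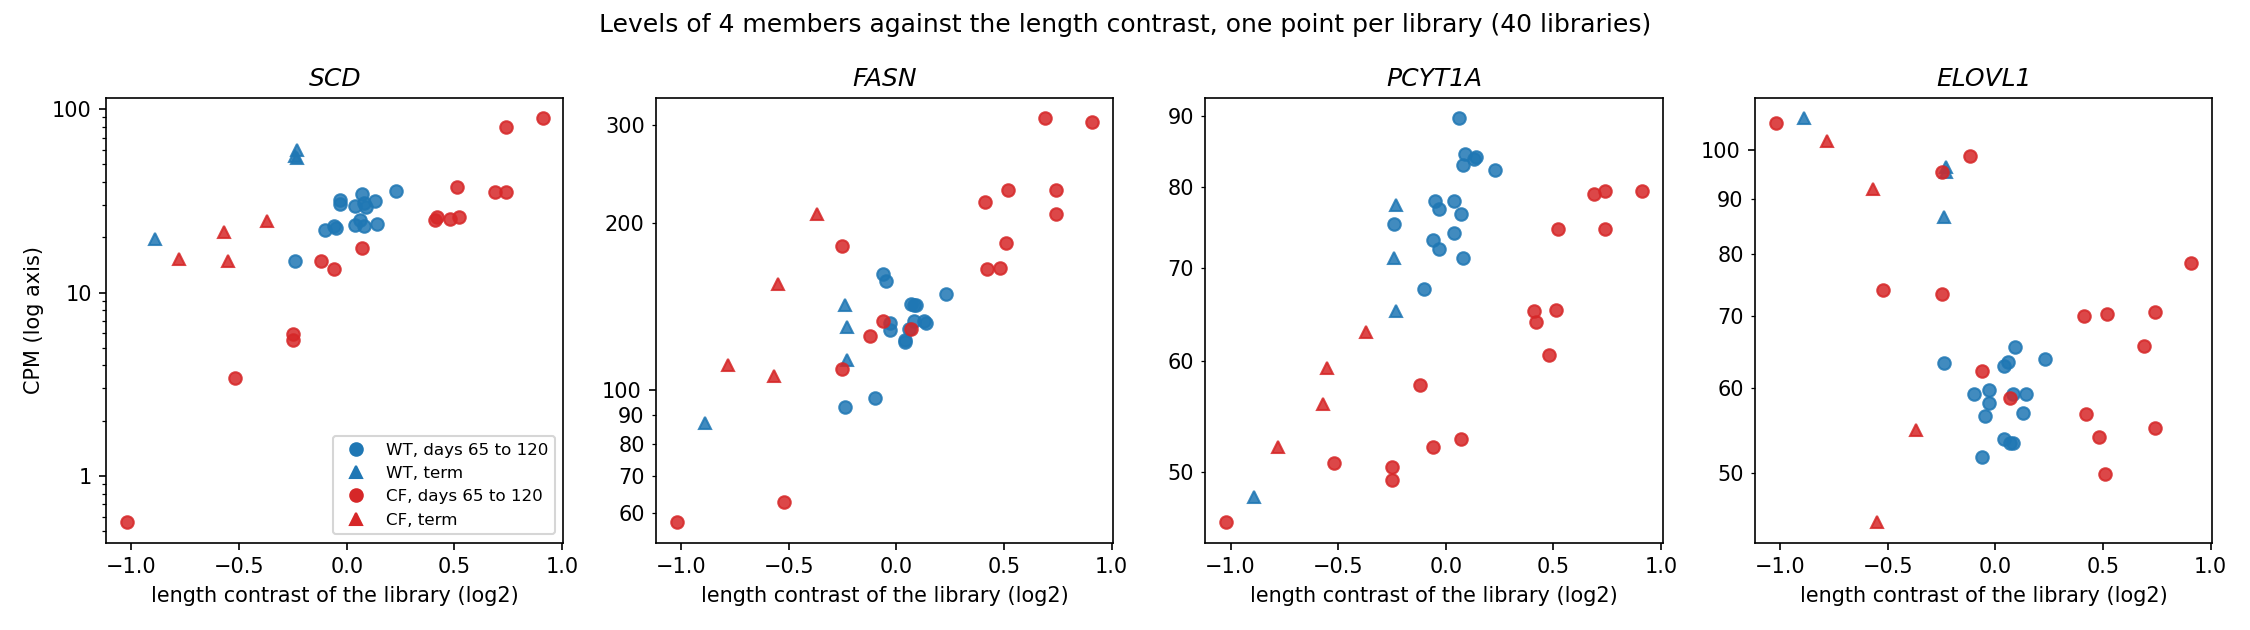
Level (CPM, log axis) of SCD, FASN, PCYT1A and ELOVL1 against the length contrast of the library (log2), 1 point for each of 40 libraries, WT in blue and CF in red, with circles for days 65 to 120 and triangles for term. The library at -1.02 holds the lowest SCD value, 0.558 CPM, and the correlation over all libraries is 0.61 for SCD, 0.79 for FASN, 0.60 for PCYT1A and -0.46 for ELOVL1.

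ELOVL1, an elongase of very long saturated and monounsaturated fatty acids, lies on chromosome 1 at 17809090 to 17813902, minus strand. In WT proximal lung it was at 63.8 and 63.5 CPM at day 120 and 95.3 and 96.4 CPM at term. In WT distal lung it was at 65.5 and 56.5 CPM at day 120 and 86.5 and 107 CPM at term. The WT term libraries lay above all earlier WT libraries in both regions, whereas the CF term libraries spread from 45.0 to 102 CPM.

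The WT rise of ELOVL1 to term was 0.59 ± 0.10 in proximal (adjusted p = 0.00356) and 0.66 ± 0.15 in distal lung (adjusted p = 0.0142), close to the size limit of 0.58. Distal folds over the other analyses ran from 0.56 to 0.67 and passed in 8 of 10. Proximal folds over the other analyses ran from 0.51 to 0.60 and passed in 4 of 10, and leaving out WT proximal day 100 replicate 2, day 120 replicate 2 or term replicate 2 brought the fold to 0.57 to 0.58, just under the limit. The distal call was lost without WT distal day 120 replicate 1 (adjusted p = 0.0528), day 120 replicate 2 (fold 0.55) or term replicate 2 (fold 0.44). In CF lung the change was -0.30 ± 0.35 (proximal) and -0.27 ± 0.33 (distal), and the difference in change was -0.86 ± 0.38 (adjusted p = 0.289) and -0.92 ± 0.39 (adjusted p = 0.147), not called. Without CF distal term replicate 1 the CF distal change was -0.99 and the distal difference in change -1.67, with the CF term arm then replicate 2 alone. CF against WT at term was -0.38 ± 0.27 in proximal (adjusted p = 0.466) and -0.37 ± 0.27 in distal lung (adjusted p = 0.388). CF distal term replicates stood at 102 and 45.0 CPM, and with replicate 2 alone the distal difference at term was -1.13.

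PLIN2 coats lipid droplets and marks their presence in many cell types. It lies on chromosome 2 at 87123150 to 87137944, minus strand. Its levels stayed between 23.8 and 37.8 CPM in all 20 WT libraries and between 16.9 and 61.8 CPM in CF libraries. No comparison called it. The change from day 120 to term was 0.12 ± 0.14 in WT proximal and -0.08 ± 0.21 in WT distal lung, and 0.83 ± 0.40 (adjusted p = 0.379) and 0.62 ± 0.33 (adjusted p = 0.191) in CF proximal and distal lung. CF term replicates stood at 28.9 and 61.8 CPM in proximal and 27.8 and 47.9 CPM in distal lung, so that in each region 1 of the 2 lay above every WT library. Without CF distal day 120 replicate 2 the day 120 arm was replicate 1 alone, at a length contrast of 0.91, the highest of any library. The CF distal changes of PLIN2 were then -1.13 from day 65 to day 120 and 1.13 from day 120 to term. Its level ran against the length contrast in CF (r = -0.64 over 20 libraries).

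Adipocytes also carry droplets and lipogenic enzymes. Of their markers, LEP was at or below 0.0186 CPM and CIDEC at or below 0.602 CPM throughout. ADIPOQ was at or below 0.404 CPM in WT and reached 7.69 CPM in CF libraries, in CF proximal day 120 replicate 2. CFD, adipsin, was far higher, at 71.4 to 232 CPM in WT and 54.9 to 158 CPM in CF libraries at term and at 3.13 to 19.1 CPM in WT libraries before term, and FABP4 reached 81.8 CPM in WT libraries at term. The summed level of 9 adipocyte markers, 1 of which (FABP4) is also among the macrophage markers, was 11.9 to 68.3 CPM before term and 109 to 300 CPM in WT and 72.0 to 188 CPM in CF libraries at term.

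With the prenatal ages averaged, CF against WT called 1 member in each region, SREBF1 higher in proximal lung (background 14.1% of genes, with 10.9% higher and 3.21% lower) and CHPT1 lower in distal lung (18.0%, with 11.5% higher and 6.48% lower). At single ages no member was called in proximal lung at days 65, 80, 100 or 120, where 0.167%, 0.0885%, 0.383% and 1.35% of genes were called by edgeR. Of those member tests 4 had an unadjusted p under 0.05 and DESeq2 called 2, SREBF1 and CHPT1 at day 65. In distal lung CHPT1 was called at days 65, 100 and 120, with a background of 5.05%, 5.07% and 4.22% of genes, and no member at day 80 (5.75%; 1 unadjusted p under 0.05 and 0 calls by DESeq2). At term ACACA was called in proximal lung (background 6.08%, with 2.60% higher and 3.48% lower) and in distal lung (14.4%, with 7.16% higher and 7.23% lower).

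**Figure D4:**
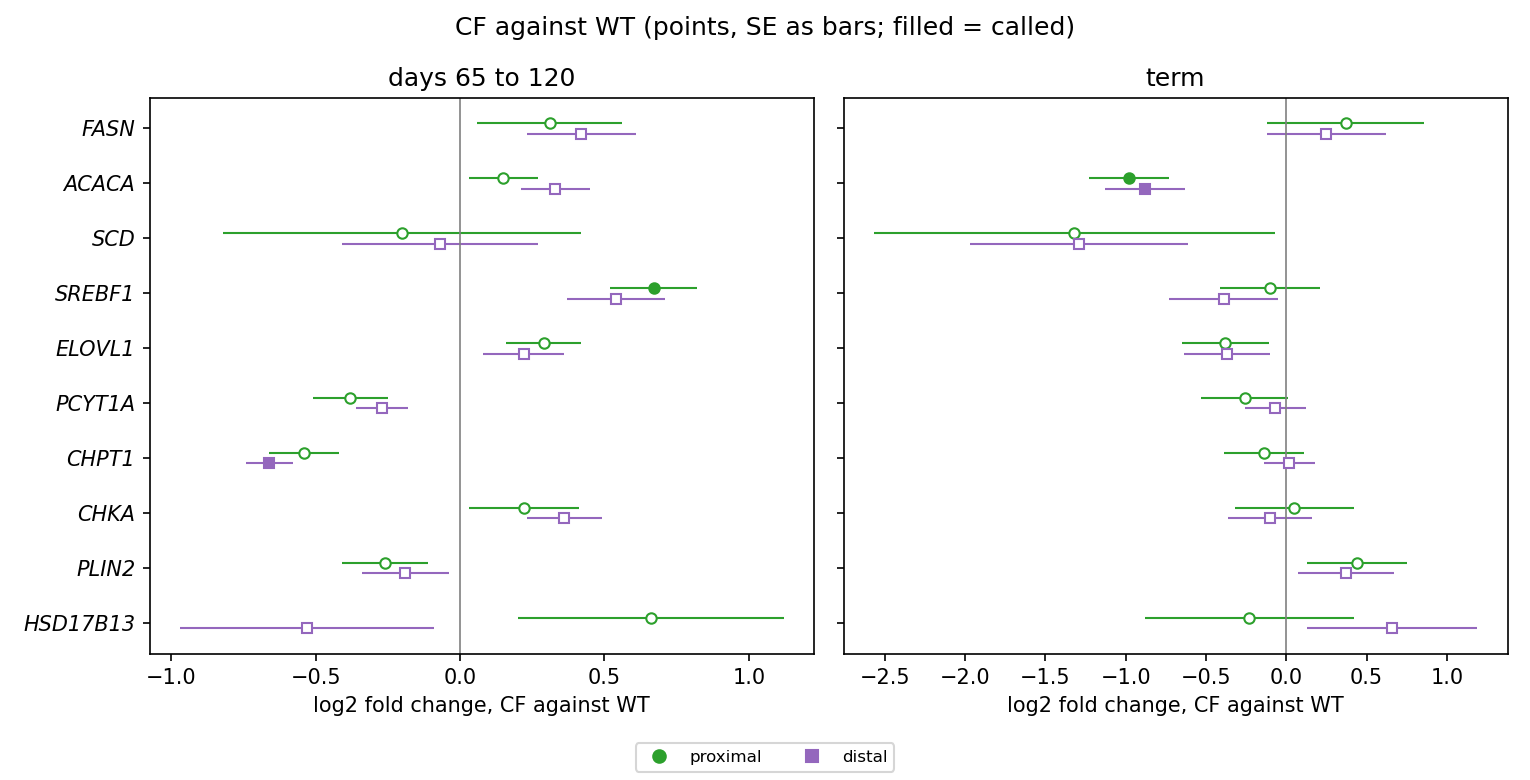
Log2 fold change, CF against WT, of each member over days 65 to 120 (left) and at term (right), proximal in green and distal in purple, with standard errors as bars and called differences as filled symbols. Filled symbols are SREBF1 proximal (0.67) and CHPT1 distal (-0.66) on the left and ACACA in both regions (-0.98 and -0.88) on the right.

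The difference in change between genotypes was called by edgeR for no member, either from day 100 to day 120 (0% of genes in both regions) or from day 120 to term (1.78% of genes in proximal and 9.31% in distal lung). Of these tests 6 had an unadjusted p under 0.05, and DESeq2 called 2, ACACA and CHPT1 in distal lung from day 120 to term. Without CF proximal day 120 replicate 1, whose partner is the library of lowest length contrast, 5 member tests were called, where 10.5% (day 100 to day 120) and 18.4% (day 120 to term) of all genes were. From day 100 to day 120 they were SCD with -5.58 and FASN with -2.01. To term they were SCD with 4.45, where it was -1.72 ± 1.75 with all libraries, FASN with 1.64 and ELOVL1 with -1.12.

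Distal and proximal lung were compared with the animal as a block, taken from the genotype, age and replicate number of the titles. The deviations of libraries so paired correlated at -0.09 to 0.63 between regions, over 0.1 in 6 of 10 pairs. The pairing rests on the titles. No member was called at any age by edgeR, against 0% of genes at days 65 and 80 and at term, 0.0193% at day 100 and 0.0144% at day 120. The unadjusted p was under 0.05 for 3 member tests, and DESeq2 called 0. The largest fitted difference was -1.11 ± 0.66 for SCD at day 65, and the smallest standard errors, those of CHPT1, were 0.09 with differences from -0.10 to 0.24.

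The other genes of these pathways were described as 6 lists of 124 genes, of which sterol synthesis showed the largest median differences between CF and WT at term. It holds mainly enzymes of cholesterol synthesis, with STARD4, a carrier of cholesterol inside the cell, and 18 of its 20 genes were tested. From day 120 to term 9 of 18 were higher in WT proximal and 8 of 18 in WT distal lung, with none lower, and 11 of 18 were lower in CF distal lung, with none higher. The shares of all genes were 11.3% and 11.8% higher in WT proximal and distal and 11.4% lower in CF distal lung. At term 10 of 18 were lower in CF than in WT proximal and 13 of 18 in distal lung, against 3.48% and 7.23% of all genes, with medians of -1.15 and -1.27 against -0.03 and 0.00 for all genes.

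Among the sterol genes at term, LSS, the enzyme that makes lanosterol, was lower in CF than in WT distal lung by -2.21 ± 0.50 (adjusted p = 0.00940). STARD4 was lower in CF proximal lung by -1.67 ± 0.37 (adjusted p = 0.0171). In WT, FDPS, which makes farnesyl diphosphate, rose to term by 0.93 ± 0.12 in proximal and 1.12 ± 0.19 in distal lung. The proximal count of 10 was 0 without WT proximal term replicate 1 or CF proximal term replicate 2, 1 without WT proximal term replicate 2 and 13 without CF proximal term replicate 1, and the distal count of 13 ran from 10 to 15. With the length trend removed the counts were 10 and 14. These term comparisons share the WT term libraries with the WT changes to term.

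The fatty acid synthesis list holds 28 genes besides the members. From day 120 to term 9 of 28 were higher in WT proximal, and 8 higher and 1 lower in WT distal lung, against 11.3% of all genes higher in proximal and 11.8% higher and 10.5% lower in distal lung. ACSS2, which makes cytosolic acetyl-CoA, rose by 1.87 ± 0.19 and 1.98 ± 0.26, and ACSL5, an acyl-CoA synthetase, by 2.00 ± 0.23 in distal lung. In CF distal lung 4 were higher and 5 lower, against 11.5% and 11.4% of all genes. At term 5 of 28 were lower in CF proximal and 11 lower and 1 higher in CF distal lung than in WT, against 3.48% (proximal) and 7.23% and 7.16% (distal) of all genes, with medians of -0.63 and -0.69. Among them FADS2, a fatty acid desaturase, was lower by -1.53 ± 0.34 and ELOVL6, the elongase of palmitate, by -1.41 ± 0.36 in distal lung, while THRSP, a lipogenic activator, was higher by 2.63 ± 0.62. From day 65 to day 120 the list held 2 higher and 3 lower in WT proximal lung, against 9.17% and 7.54% of all genes, and 1 higher and 3 lower in WT distal lung, against 8.97% and 6.92%.

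Of the 15 lipogenic regulators tested, 3 in WT proximal and 4 in WT distal lung were higher at term than at day 120, against 11.3% and 11.8% of all genes, led by INSIG1, an inhibitor of SREBP processing (2.42 ± 0.21 and 2.17 ± 0.15). In CF distal lung 2 were higher and 2 lower, against 11.5% and 11.4% of all genes. SREBF2, the paralog of SREBF1 that drives sterol genes, was the 1 regulator called at term between genotypes and was lower in CF, by -0.97 ± 0.26 in proximal (adjusted p = 0.0436) and -1.10 ± 0.25 in distal lung (adjusted p = 0.00951). Before term PPARG was higher in CF distal lung by 0.80 ± 0.21. The medians of this list at term were -0.26 and 0.07, against -0.03 and 0.00 for all genes.

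Of 22 genes of the glycerolipid backbone, 9 were higher and 2 lower in WT proximal and 7 higher and 2 lower in WT distal lung at term against day 120, where 11.3% and 8.78% (proximal) and 11.8% and 10.5% (distal) of all genes were. LPIN2, a phosphatidate phosphatase, rose by 2.33 ± 0.26 and 2.36 ± 0.25, and at term it was lower in CF by -2.38 ± 0.31 in proximal and -2.31 ± 0.23 in distal lung. From day 120 to term in CF distal lung 4 of 22 were higher and 4 lower, against 11.5% and 11.4% of all genes. At term 3 of 22 were lower and 1 higher in CF proximal, and 5 lower and 1 higher in CF distal lung, against 3.48% lower and 2.60% higher (proximal) and 7.23% and 7.16% (distal) of all genes. The higher gene in both was PLPP3, a lipid phosphate phosphatase (1.48 ± 0.22 and 1.45 ± 0.24).

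Of 17 choline and ethanolamine phospholipid genes tested, 5 were higher in WT proximal and 6 higher and 1 lower in WT distal lung at term against day 120, where 11.3% of all genes were higher in proximal and 11.8% higher and 10.5% lower in distal lung. PRDX6, which also acts as a phospholipase in surfactant turnover, rose by 2.11 ± 0.16 and 2.17 ± 0.14, and LPCAT1, the acyltransferase that makes disaturated phosphatidylcholine, by 1.06 ± 0.29 in distal lung. In CF distal lung 1 of 17 was higher to term, PRDX6 (1.23 ± 0.31), and none lower, against 11.5% and 11.4% of all genes. At term 4 were lower in CF proximal, against 3.48% of all genes, and 5 lower and 1 higher in CF distal lung, against 7.23% and 7.16%, with PRDX6 at -1.43 ± 0.37 and -1.29 ± 0.25. Of the lipid droplet list, 5 of 19 were higher and 1 lower in WT proximal and 4 of 20 higher in WT distal lung, beside the same shares of all genes (8.78% lower in proximal lung), led by HSD17B11, the paralog of HSD17B13 (2.28 ± 0.15 and 2.12 ± 0.16). In CF distal lung 4 of 20 were higher and 1 lower to term, against 11.5% and 11.4% of all genes.

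Before term the droplet list held 4 of 20 genes higher in CF proximal and 5 of 20 higher in CF distal lung, with none lower, against 10.9% and 11.5% of all genes higher. They included PLIN1 (1.79 ± 0.35 and 2.04 ± 0.27), a droplet coat that is among 4 genes this list shares with the adipocyte markers, and PNPLA2, the main triglyceride lipase (1.06 ± 0.16 and 0.99 ± 0.13). At term 2 of the 20 were lower in CF proximal lung, against 3.48% of all genes, and 3 higher and 4 lower in CF distal lung, against 7.16% and 7.23%.

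**Figure D5:**
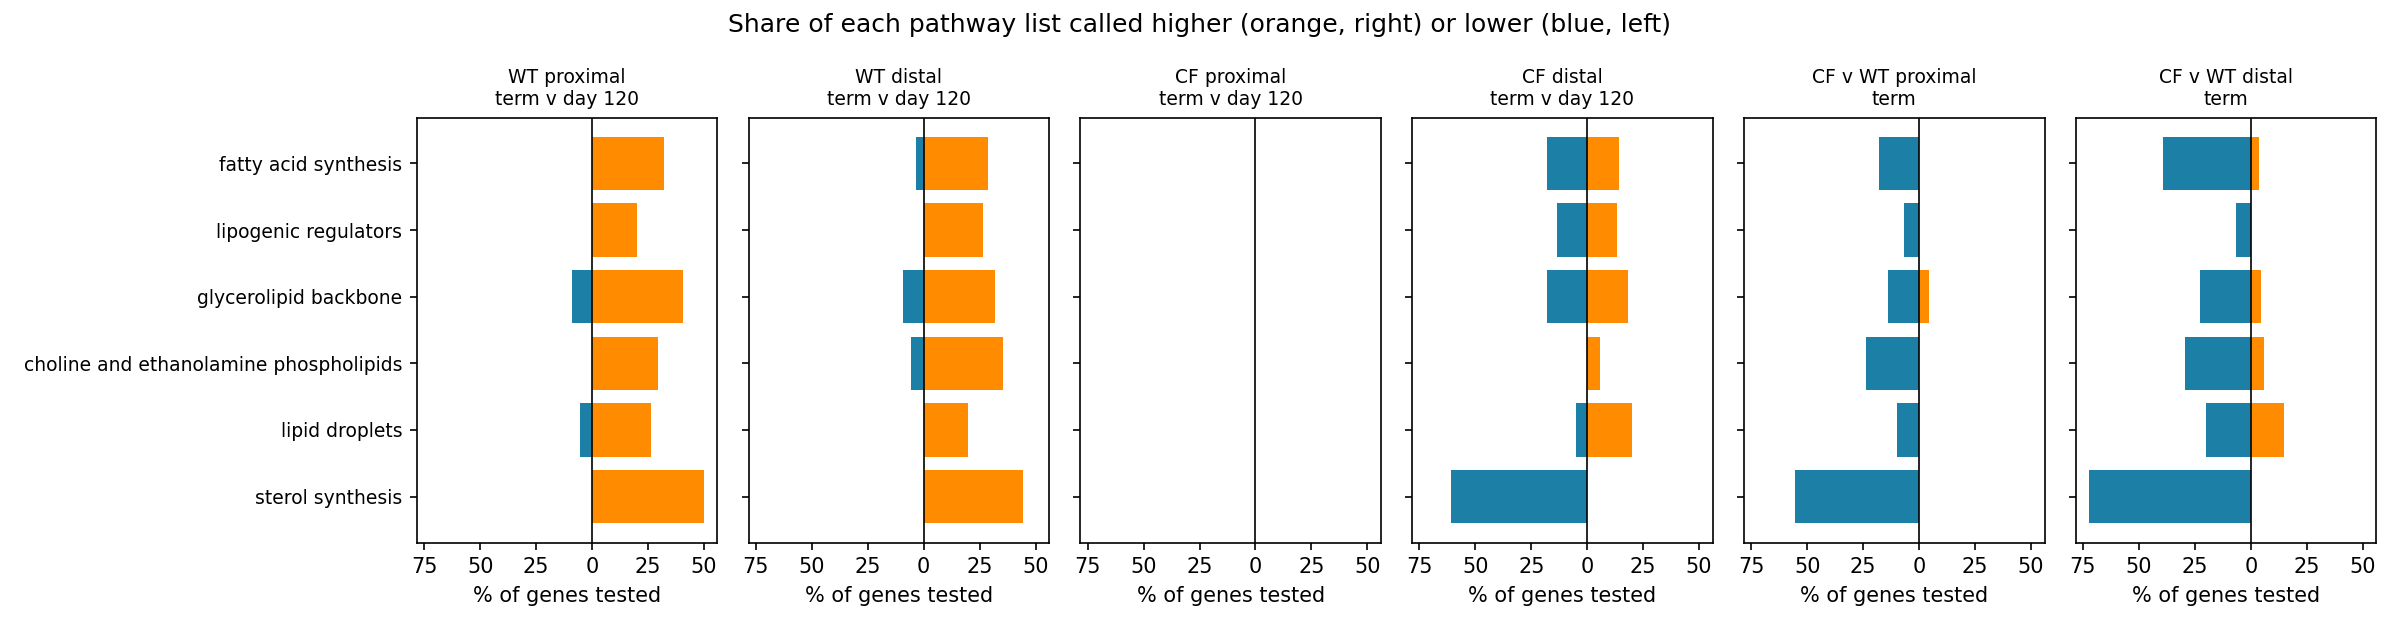
Percent of the genes tested in each of 6 pathway lists that were called higher (orange, right) or lower (blue, left), from day 120 to term in the 4 courses and in CF against WT at term. Sterol synthesis has 9 and 8 of 18 genes higher in the WT courses, 11 of 18 lower in CF distal lung, and 10 and 13 of 18 lower in CF against WT.

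Macrophage markers moved with the same samples. Their sum over 9 genes was 437 to 1000 CPM in the 4 WT term libraries, 94.4 to 145 CPM in the 4 CF term libraries and 51.3 to 122 CPM before term. MARCO, a receptor of alveolar macrophages, was at 199 to 494 CPM in WT and 6.73 to 13.5 CPM in CF libraries at term and at or below 0.241 CPM before term. Of the 9 markers 8 were called higher to term in both WT regions, 7 in CF distal and none in CF proximal lung. The shares of all genes called higher were 11.3% and 11.8% in WT proximal and distal, 11.5% in CF distal and 0.0762% in CF proximal lung. CF libraries at term were lower for 7 of 9 in proximal and 6 of 9 in distal lung, with 1 higher in distal lung. The shares of all genes were 3.48% lower in proximal lung and 7.23% lower and 7.16% higher in distal lung. The part of macrophages in the term levels of ACACA, CHKA, ELOVL1 and the pathway lists was not tested.

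Other cell types changed with age as well. Summed alveolar type 1 markers stood at 434 to 662 CPM at day 65 and, at term, at 5620 to 6680 CPM in WT and 2270 to 4170 CPM in CF libraries, which did not overlap. Of these 8 markers 2 were called lower in CF proximal and 3 in CF distal lung at term, against 3.48% and 7.23% of all genes. Pan-epithelial markers were at 482 to 799 CPM at day 65 and, at term, at 1730 to 2050 CPM in WT and 824 to 1780 CPM in CF libraries. Of these 7 markers 2 were called lower in CF distal lung at term, against 7.23% of all genes. Lipofibroblast markers, of which PPARG is also among the lipogenic regulators, were at 643 to 930 CPM in WT and 1050 to 1390 CPM in CF libraries at term, and airway secretory markers at 924 to 5600 CPM and 800 to 3040 CPM. Ciliated markers were at 451 to 758 CPM in WT and 334 to 620 CPM in CF libraries at term. At that age cartilage markers were at 27.8 to 30.7 CPM in WT and 19.4 to 27.8 CPM in CF libraries, erythroid markers at 1.35 to 3.52 CPM and 5.31 to 9.69 CPM, and hepatocyte markers at 117 to 161 CPM and 112 to 213 CPM. The part of these cell types in the members' values was not tested.

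The members did not share a common course. Across the 40 libraries the closest pair of members was CHPT1 and HSD17B13 (r = 0.79 of log2 CPM), followed by SCD and PCYT1A (0.68) and ACACA and SREBF1 (0.65), and the most opposed pair was SREBF1 and PLIN2 (-0.47). With the summed alveolar type 2 markers the correlation was 0.88 for HSD17B13, 0.83 for CHPT1, 0.68 for ELOVL1, 0.55 for ACACA, 0.50 for CHKA and 0.47 for SREBF1, and between -0.15 and 0.04 for FASN, SCD, PCYT1A and PLIN2. These are descriptions over libraries that share ages, animals and depth.

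Among 20779 genes, the genes whose log2 CPM most resembled that of HSD17B13 over the 40 libraries were NTN4, CCRL2 and C25H10orf54 (r = 0.96, 0.96 and 0.95). For CHPT1 they were F11R, INSIG2 and MAL2 (0.95 each), of which INSIG2 is also in the list of lipogenic regulators. For ACACA they were CRAT, GOLGA1 and LPIN2 (0.90, 0.89 and 0.88), and for CHKA ANGPTL2, TP53BP2 and ATL2 (0.90, 0.90 and 0.89). SCD was closest to LRCH1, RALGAPA2 and DYNC1LI2 (0.95, 0.95 and 0.94), PCYT1A to VCPIP1, RBMS3 and USP9X (0.95, 0.93 and 0.92), and FASN to BAZ2A, KDM6B and BCOR (0.89, 0.89 and 0.87). SREBF1 was closest to ZNF335 and PARP10 (0.87 each), ELOVL1 to TMEM173 and MOGS (0.89 each), and PLIN2 to MRPL45 (0.87).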

How the data were processed

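Libraries of oligo dT cDNA from 40 pieces of proximal and distal lung were sequenced as 100 bp paired ends. Reads were aligned by the authors to Oar_v4.0 with STAR and counted over genes by featureCounts 1.6.3; the deposited values are raw counts per gene, neither normalized nor pooled. No source used here gives the annotation release, the strand setting or how mates were treated. Groups follow the sample titles, and p-values measure the spread between these libraries. Day 50 was not analysed here.

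The analysis used edgeR 4.0.16, limma 3.58.1 and DESeq2 1.42.0 under R 4.3.3. Genes passing filterByExpr (count minimum 10, total minimum 15) were scaled by TMM. The fits, each with 1 mean per condition, were tested two-sided by glmQLFTest with the legacy quasi-likelihood: each course of 10 libraries, each region of 20 libraries (CF against WT), and all 40 libraries with the animal as a block (distal against proximal). Calls required an adjusted p no higher than 0.05 together with a log2 change of at least 0.58 in either direction; the authors' own limit of 0.001 is among the alternatives. Correlations were taken on log2 CPM (prior count 2).

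The members, the 6 pathway lists and the 11 marker lists were chosen with earlier results of these data known. All 10 members are named, with at most 3 genes of highest correlation for each and at most 3 called genes of largest fold per pathway list and comparison. Some genes of the lists are counted but not reported here by name. Alternatives were RLE scaling, DESeq2, other limits, no filter, thinned counts, the bias-adjusted quasi-likelihood, all 40 libraries in 1 fit, a replicate block, the 2 WT day 100 libraries summed, and each library left out. Added after the data were seen were the removal of each library's lowess trend on gene length (span 0.3), the omission of the 5 prenatal libraries of lowest length contrast, and the sterol counts. A condition left with 1 library is assumed to vary like the others. The fits were tested on simulated data. Changes of 2-fold or 4-fold placed in CF proximal lung (day 120 against day 65) were not called there. Of 100 changes of 2-fold, 49 were called in WT proximal lung (day 120 against day 100) and 44 in distal against proximal lung at day 120. Of 100 changes of 4-fold, 94 were called in each. In CF against WT distal lung before term, 94 of 100 changes of 2-fold were called. A lack of calls in a course or between regions therefore does not show a lack of change.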

Additional observations from a re-analysis of the deposited data

How the results depend on the processing

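Of the 28 member calls, all 28 kept their direction and their side of the limits with the replicate block and with the bias-adjusted quasi-likelihood, 27 with DESeq2, RLE scaling or no filter on low counts, 26 with counts thinned to equal depth, 25 with the 2 WT day 100 libraries of a region summed (lost were CHPT1 from day 100 to day 120 and ELOVL1 to term in WT proximal lung and CHPT1 in CF against WT distal lung at day 100), 24 without the 5 prenatal libraries of lowest length contrast, 22 with all 40 libraries in 1 fit and 21 with the length trend removed. On leaving out each library in turn, 14 of the 28 kept their side of the limits at their highest adjusted p and 17 at their smallest fold, and 18 passed an adjusted p of 0.01 and 8 the study's limit of 0.001. No direction reversed. Leaving out 1 library gave 10 to 17 calls between consecutive ages and 7 to 12 from day 65 to day 120. The 13 calls between consecutive ages became 3 at the study's limit (adjusted p of 0.001), 8 at an adjusted p of 0.01 and 21 with DESeq2, and the 8 calls from day 65 to day 120 became 4 at the study's limit. The 5 calls of CF against WT at single ages became 0 at the study's limit, 1 at 0.01, 8 with DESeq2 and 3 with the length trend removed. Leaving out 1 library gave 3 to 8, with 3 without WT distal day 120 replicate 1 or 2 and 8 without CF proximal day 120 replicate 1. The 2 prenatal calls became 1 at the study's limit and with the length trend removed and 4 without the 5 libraries. Leaving out 1 library gave 1 to 3, with 1 without WT proximal day 100 replicate 1 and 3 without CF distal day 65 replicate 2. The 0 calls for the difference in change became 2 with DESeq2, with the length trend removed and without the 5 libraries, and 0 to 5 on leaving out 1 library. The 0 calls for distal against proximal became 2 without CF day 120 replicate 1, CHKA at 0.72 and SCD at 2.26, the range on leaving out each animal in turn being 0 to 2. Of the pathway genes, the 40 calls from day 65 to day 120 became 3 at the study's limit and 69 with DESeq2. The 10 sterol genes of proximal lung became 0 at the study's limit and 1 at 0.01, with 0 to 13 on leaving out 1 library, and the 13 of distal lung became 3 at the study's limit. Apart from the limits and the libraries left out, the cause of these differences was not tested.

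The replicate numbers of the titles did not pair the samples across ages or genotypes: the deviations of same-numbered libraries from their group means correlated at -0.42 to 0.62 across ages, over 0.1 in 10 of 40 pairs, and at -0.09 to 0.24 across genotypes, over 0.1 in 3 of 10 pairs. With the replicate number as a block, the counts were 14 between consecutive ages, 9 from day 65 to day 120, 5 for CF against WT at single ages, 2 over prenatal ages and 1 for the difference in change (ACACA in distal lung from day 120 to term, -1.12, adjusted p = 0.00721). With no replicate block for distal against proximal the count was 0. RLE scaling moved the median of all genes by at most 0.05 and removal of the length trend by at most 0.07 on the log2 scale. With 2 libraries a condition, the standard error of a member's change from day 120 to term was 0.10 to 0.44 in WT and 0.22 to 1.61 in CF lung, where 22.9% of all genes were called in distal and 0.356% in proximal lung.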
